A study of Mus musculus with 9 samples.

Results

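The sirtuins, which remove acyl groups from proteins, and 3 enzymes that make NAD or draw off its precursor were followed in the liver of diabetic mice. The 10 genes (Nampt, Nmnat1, Nnmt and Sirt1 to Sirt7) were taken by name, and every probe set that the platform annotation assigns to them was used. That gave 15 of the 45037 probe sets tested, and 10 of the 18193 named genes. Nampt and Sirt5 had 3 probe sets each, Nmnat1 had 2, and the other 7 genes had 1. No probe set of these genes was shared with a differently named gene in the annotation.

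All 9 arrays came from liver of KKAy mice aged 8 weeks, a strain that carries the yellow obese allele of agouti on the KK background and serves as a model of type 2 diabetes. BI mice were injected into the peritoneum with 100 µL of the culture medium DMEM holding insulin at 40 µg/mL, of which 11% was in a biomineralized form. Insulin mice received the same volume and total concentration of plain insulin. The KKAy group has "none" as its treatment in the labels, while the protocol speaks of control mice injected with medium alone, so whether these mice were injected is not known. Each group had 3 arrays out of 8 to 12 mice per group. Whether an array held RNA of 1 mouse or of a pool is not stated, so the p-values reflect no more than array-to-array spread, part of which may be technical. Powdered chow with 34% fat is given for 8 arrays, and the growth protocol of the array BI replicate 2 describes rats. The sources used here give no time between injection and sampling.

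NAD is the co-substrate of every sirtuin: the enzyme splits it while it takes an acyl group off a lysine, and releases nicotinamide. NAMPT joins that nicotinamide to a ribose phosphate to give nicotinamide mononucleotide, the rate-limiting step of the salvage route, and NMNAT1 turns the mononucleotide into NAD in the nucleus. NNMT, abundant in liver and adipose tissue, methylates nicotinamide with S-adenosylmethionine and so takes it out of that route. In liver the sirtuins are best known for acting on regulators of glucose and lipid metabolism, such as the coactivator PGC-1α, and on enzymes of the mitochondrial matrix.

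Over all probe sets, 2 arrays of the same group correlated at r = 0.911 to 0.920, and 2 arrays from different groups at r = 0.909 to 0.921. The median signal of an array was 6.11 to 6.30 on the log2 scale, in which all levels below are given, and a difference of 1 is a doubling. The 8 hepatocyte markers (Alb, Apoa1 and others) were all above the median level of all probe sets (6.04), with summed linear signals of 275157 to 308329 in BI, 271443 to 298581 in Insulin and 271641 to 317743 in KKAy livers. The 3' minus 5' difference of the Gapdh control probes, a sign of RNA quality, was 0.26 to 0.42 in BI, 0.48 to 0.55 in Insulin and 0.28 to 0.65 in KKAy livers. In bulk liver, fewer cells of a type and less RNA per cell cannot be told apart.

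None of the 15 probe sets passed in any comparison. limma with Benjamini-Hochberg adjustment over all 45037 probe sets called 0 of 15 in Insulin against KKAy, 0 of 15 in BI against KKAy and 0 of 15 in BI against Insulin at an adjusted p under 0.05, and 0 of 15 in each had an unadjusted p under 0.05. Over the whole table the same test called 0% of probe sets in Insulin against KKAy, 0.0111% (5 probe sets) in BI against KKAy and 0% in BI against Insulin, and 4.47%, 4.48% and 4.04% had an unadjusted p under 0.05. The moderated F test over the 3 groups called 0% of all probe sets, with 4.4% at an unadjusted p under 0.05, and its smallest unadjusted p among the 15 was 0.143. The 95% interval of a difference reached 0.52 (log2) to either side at the median of the 10 genes, a factor of 1.43. It was narrowest for Nmnat1 (-0.54 to 0.26 in BI against KKAy) and widest for Sirt6 (-3.14 to 0.16 in BI against Insulin). The values themselves, gene by gene, are what these arrays show.

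The median difference of the 10 genes, each by its brightest probe set, was 0.03 in Insulin against KKAy, 0.01 in BI against KKAy and -0.03 in BI against Insulin. Over all 18193 genes the medians were 0.02, 0.00038 and -0.03. In Insulin against KKAy 6 of the 10 stood higher and 4 lower, in BI against KKAy again 6 and 4, and in BI against Insulin 3 and 7. The comparisons of Insulin and of BI with KKAy share the KKAy arrays.

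**Figure D1:**
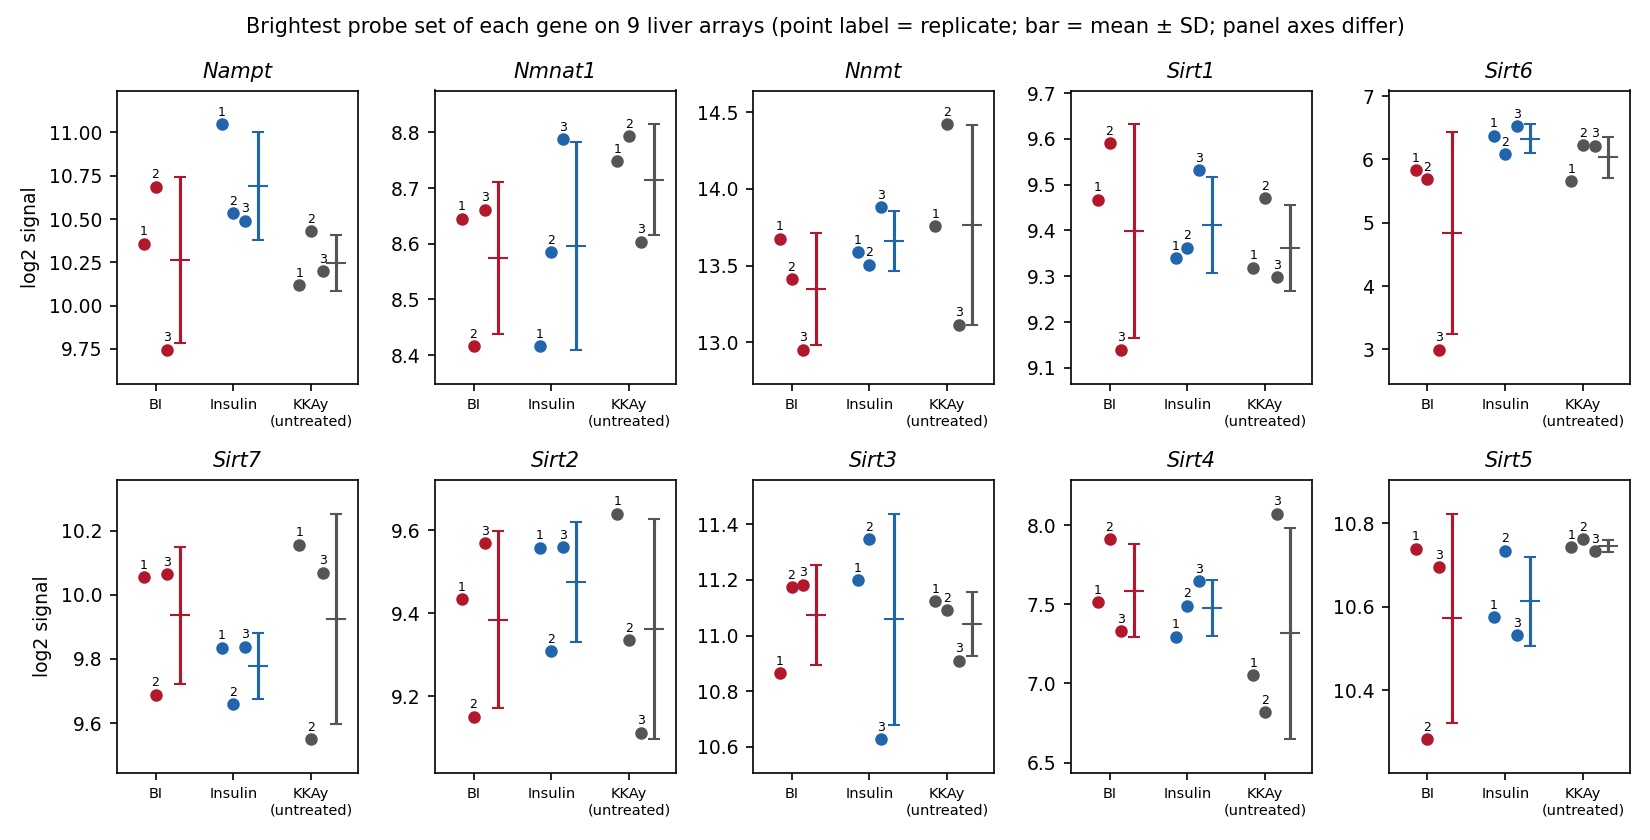
log2 signal of the brightest probe set of each of the 10 genes (y axis, scaled per panel) in BI, Insulin and KKAy livers (x axis), with 1 point per array labelled by its replicate number and a bar for the mean ± SD (n = 3). The groups overlap in most panels; the Insulin arrays of Nampt lie above the KKAy arrays, and BI replicate 3 is the lowest point of Nampt, Nnmt, Sirt1 and Sirt6.

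Nampt, the gate of the salvage route, stood 1.36-fold higher in Insulin than in KKAy livers, a difference that did not pass the test. Its brightest probe set (1417190_at) read 10.36, 10.69 and 9.75 in BI livers, 11.05, 10.53 and 10.49 in Insulin livers and 10.12, 10.43 and 10.20 in KKAy livers. All 3 Insulin arrays lay above all 3 KKAy arrays. The BI arrays ranged from below every KKAy array (9.75) to within the Insulin range (10.69). The difference was 0.44 ± 0.28 (log2 ± SE) in Insulin against KKAy, with a 95% interval of -0.22 to 1.10 and a limma adjusted p of 1.00, and the exact permutation p of 0.1 is the smallest that 3 arrays against 3 allow. Against KKAy livers, BI livers differed by 0.02 ± 0.28 (95% interval -0.65 to 0.68). BI against Insulin gave -0.43 ± 0.28, with BI replicate 2 inside the Insulin range. Without BI replicate 3 that difference was -0.17, and without Insulin replicate 1 it was -0.25.

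A further bright probe set of Nampt (1455320_at) gave the same picture. It read 9.72, 9.83 and 9.24 in BI livers, 10.10, 9.99 and 9.86 in Insulin livers and 9.40, 9.78 and 9.44 in KKAy livers. Here the Insulin arrays lay above every array of both other groups, by 0.45 ± 0.22 against KKAy (95% interval -0.06 to 0.95, limma unadjusted p 0.0740) and with BI against Insulin at -0.39 ± 0.22. Across the 9 arrays these probe sets followed each other (r = 0.933, exact permutation p = 0.000146; rho = 0.950, exact permutation p = 0.000353; adjusted over the 7 pairs of probe sets of the same gene, 0.00102 and 0.00247). Without BI replicate 3 and Insulin replicate 1, the arrays farthest from the median, r was 0.884, and within groups it was 0.910. They measure the same RNA, so their agreement adds no sample.

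The third Nampt probe set (1448607_at) lay below the median level of all probe sets and did not follow the other 2. It read 5.36, 4.95 and 5.65 in BI livers, 4.78, 4.05 and 3.10 in Insulin livers and 3.96, 6.01 and 3.86 in KKAy livers. All BI arrays were above all Insulin arrays (1.35 ± 0.65, 95% interval -0.18 to 2.87), the opposite side from the bright probe sets. With the brightest probe set it correlated at r = -0.122 (exact permutation p = 0.762, adjusted 0.762; rho = -0.0833, exact permutation p = 0.843, adjusted 0.912), and at r = 0.195 without the same 2 arrays. No background measure was used, so whether this dim signal is above background is not known. Averaged over all 3 probe sets, Nampt stood at 0.08 in Insulin against KKAy and at 0.18 in BI against Insulin.

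The groups did not overlap for 2 of the 15 probe sets in Insulin against KKAy, both of Nampt and both higher, where 5.33% of all probe sets did so in that direction and 3.86% in the other. In BI against KKAy 0 of 15 were separate, against 4.94% higher and 4.26% lower over all probe sets. In BI against Insulin 1 was higher (the dim Nampt probe set) and 2 were lower (the other Nampt probe set and Sirt6), against 4.6% and 5% of all probe sets. Counted by gene with the brightest probe set, 1 of 10 was separate in Insulin against KKAy, 0 of 10 in BI against KKAy and 1 of 10 in BI against Insulin.

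In Insulin against KKAy and BI against Insulin, markers of liver endothelial cells stood on the same side as the bright Nampt probe sets. Of 8 measured (Stab2, Lyve1, Clec4g and others), 7 stood higher in Insulin than in KKAy livers (median 0.32) and 8 of 8 lower in BI than in Insulin livers (median -0.38), and 0 passed the test in either comparison. Their summed linear signal was 4620 to 6190 in BI livers, 6447 to 7992 in Insulin livers and 4896 to 7095 in KKAy livers, and none of the 8 was at 0 on any array. Kupffer cell and macrophage markers were higher in Insulin than in KKAy livers in 6 of 8 cases (median 0.22) and lower in BI than in Insulin livers in 8 of 8 (median -0.26), again with 0 called, and their sums overlapped (13142 to 24858 in BI, 15233 to 21755 in Insulin and 12043 to 22408 in KKAy livers). In BI against KKAy 6 of 8 endothelial markers were lower (median -0.19), where the brightest Nampt probe set stood at 0.02. Marker lists of further cell types had medians on the same sides as the bright Nampt probe sets in Insulin against KKAy and BI against Insulin. These medians were 0.40 and -0.24 for adipocyte, 0.51 and -0.03 for lymphocyte, and 0.27 and -0.06 for skeletal muscle markers. Many of these markers were dim: 3 of 6, 5 of 6 and 5 of 6 lay below the median level of all probe sets. Whether such signals were above background is not known. The adipocyte list held Car3, whose mean level (15.47) was above that of the hepatocyte marker Alb (15.31), so that list need not read adipocytes here. Hepatocyte (-0.05), stellate cell (-0.002) and cholangiocyte (-0.13) medians were lower in Insulin against KKAy. The part of any of these cells in the Nampt values was not tested. Neutrophils, which are rich in Nampt, had 6 of 8 markers measured, with sums of 1126 to 2811 in BI, 1627 to 4246 in Insulin and 1605 to 9895 in KKAy livers, and their median was -0.24 in Insulin against KKAy and -0.49 in BI against Insulin.

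**Figure D2:**
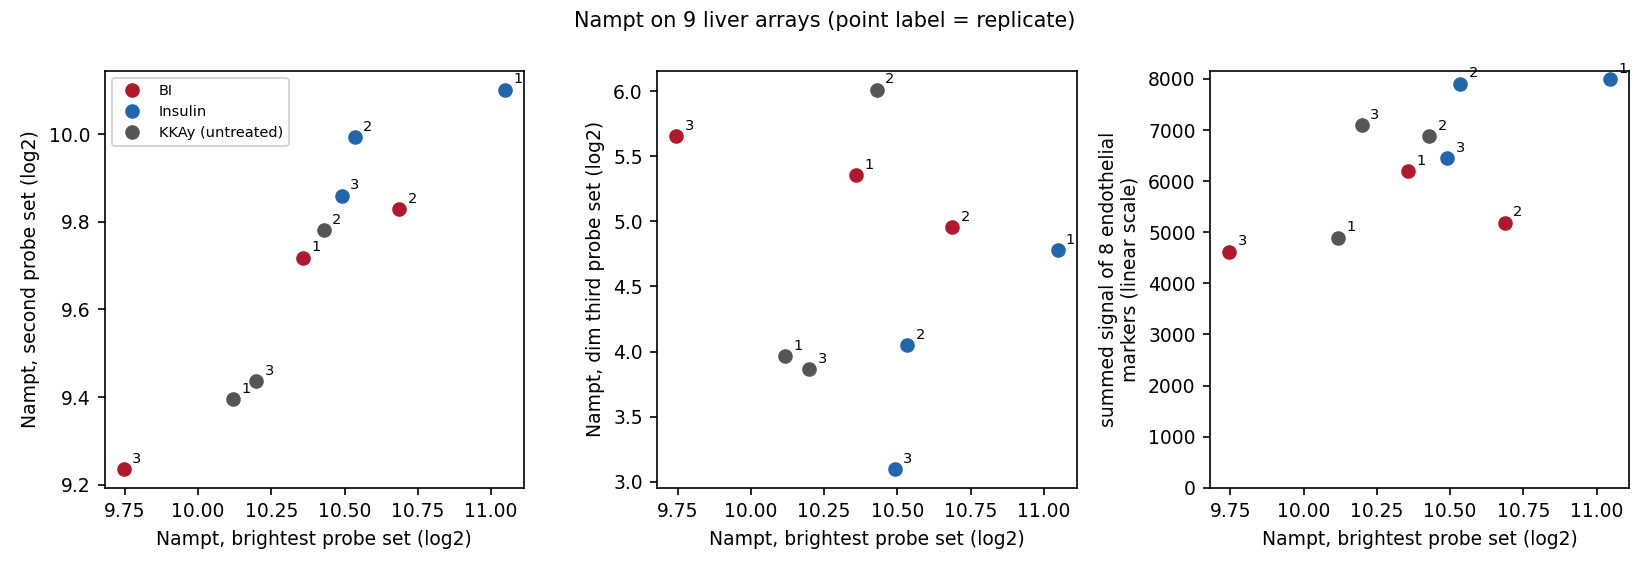
Brightest Nampt probe set on 9 arrays (x axis, log2 signal) against the further bright probe set, the dim probe set (both log2 signal) and the summed linear signal of 8 endothelial markers (y axes), coloured by group and labelled by replicate. The points of the left panel run along a line (r = 0.933), those of the middle panel do not (r = -0.122), and the 3 BI arrays have the endothelial sums from 4620 to 6190, below all 3 Insulin arrays.

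Nmnat1, which completes NAD in the nucleus, varied little. The brightest probe set (1429819_at) read 8.64, 8.42 and 8.66 in BI livers, 8.42, 8.58 and 8.79 in Insulin livers and 8.75, 8.79 and 8.60 in KKAy livers. The groups overlapped throughout, at -0.12 ± 0.17 in Insulin against KKAy, -0.14 ± 0.17 in BI against KKAy and -0.02 ± 0.17 in BI against Insulin. For BI against KKAy the 95% interval was -0.54 to 0.26, or 0.687-fold to 1.20-fold. The other probe set (1425773_s_at) spanned 7.94 to 8.60, was at -0.18 ± 0.21 in Insulin against KKAy and at -0.01 ± 0.21 in BI against KKAy, and correlated with the brightest at r = 0.562 (exact permutation p = 0.114, adjusted 0.298; rho = 0.683, exact permutation p = 0.0503, adjusted 0.176) and at r = 0.669 without BI replicate 2 and Insulin replicate 1.

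Nnmt, the methyltransferase that drains nicotinamide, spread more widely between the arrays of the KKAy group than between the group means. It read 13.68, 13.41 and 12.95 in BI livers, 13.59, 13.51 and 13.88 in Insulin livers and 13.76, 14.42 and 13.12 in KKAy livers. Within the KKAy group alone the arrays spanned 1.31 (log2), wider than the whole spread of the Insulin arrays (0.37), and the highest and lowest of the 9 arrays, KKAy replicate 2 and BI replicate 3, differed 2.77-fold. The group difference was -0.42 ± 0.35 in BI against KKAy (95% interval -1.24 to 0.41, limma unadjusted p 0.272), -0.11 ± 0.35 in Insulin against KKAy and -0.31 ± 0.35 in BI against Insulin. Without KKAy replicate 2 the difference of BI against KKAy was -0.09, and without KKAy replicate 3 it was -0.74.

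Among the nuclear sirtuins, Sirt1, the deacetylase that acts on PGC-1α and FOXO1, differed between the group means by less than the spread of its arrays. It read 9.47, 9.59 and 9.14 in BI livers, 9.34, 9.36 and 9.53 in Insulin livers and 9.32, 9.47 and 9.30 in KKAy livers. BI arrays held both the highest and the lowest value. The difference was 0.04 ± 0.18 in BI against KKAy, with a 95% interval of 0.770-fold to 1.37-fold, 0.05 ± 0.18 in Insulin against KKAy and -0.01 ± 0.18 in BI against Insulin.

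Sirt6, a chromatin-bound deacetylase that restrains glycolytic genes, had a lower mean in BI livers, most of it from 1 array. Its only probe set (1429631_at) read 5.83, 5.69 and 3.00 in BI livers, 6.38, 6.08 and 6.53 in Insulin livers and 5.65, 6.23 and 6.22 in KKAy livers. All 3 BI arrays lay below the Insulin arrays, and BI replicate 3 lay far below the other 8. BI against Insulin stood at -1.49 ± 0.71 (95% interval -3.14 to 0.16, limma unadjusted p 0.0709) and BI against KKAy at -1.19 ± 0.71, while Insulin against KKAy was at 0.30 ± 0.71. Without BI replicate 3, BI against Insulin was -0.57 and BI against KKAy was -0.27. The probe set lay below the median level of all probe sets, and whether the low reading was above background is not known.

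Sirt7, the nucleolar sirtuin tied to ribosomal RNA synthesis, read 10.05, 9.69 and 10.06 in BI livers, 9.84, 9.66 and 9.84 in Insulin livers and 10.16, 9.55 and 10.07 in KKAy livers. On replicate 2 of every group it was below the other 2 arrays. The differences were 0.01 ± 0.22 in BI against KKAy, -0.15 ± 0.22 in Insulin against KKAy and 0.16 ± 0.22 in BI against Insulin, and the groups overlapped in each. Sirt2, the mainly cytoplasmic tubulin deacetylase, read 9.43, 9.15 and 9.57 in BI livers, 9.56, 9.31 and 9.56 in Insulin livers and 9.64, 9.33 and 9.11 in KKAy livers. It overlapped between all groups, at 0.02 ± 0.21 in BI against KKAy, 0.11 ± 0.21 in Insulin against KKAy and -0.09 ± 0.21 in BI against Insulin.

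The 3 mitochondrial sirtuins overlapped as well. Sirt3, the main deacetylase of the matrix, read 10.87, 11.17 and 11.18 in BI livers, 11.20, 11.35 and 10.63 in Insulin livers and 11.12, 11.09 and 10.91 in KKAy livers. Its group means were 11.07, 11.06 and 11.04 in BI, Insulin and KKAy livers, and the differences were between 0.02 and 0.03 with an SE of 0.23. Sirt4, which restrains glutamate dehydrogenase, read 7.51, 7.91 and 7.33 in BI livers, 7.29, 7.49 and 7.64 in Insulin livers and 7.05, 6.82 and 8.07 in KKAy livers. KKAy livers held both its lowest and its highest array, and the difference was 0.27 ± 0.34 in BI against KKAy, 0.16 ± 0.34 in Insulin against KKAy and 0.11 ± 0.34 in BI against Insulin. For Sirt4 in BI against KKAy it was 0.02 without KKAy replicate 2 and 0.65 without KKAy replicate 3.

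Sirt5, which strips succinyl, malonyl and glutaryl groups from matrix enzymes, was the tightest of the 10 genes in KKAy livers. Its brightest probe set (1428915_at) read 10.74, 10.28 and 10.69 in BI livers, 10.57, 10.73 and 10.53 in Insulin livers and 10.74, 10.76 and 10.73 in KKAy livers. Of the treated arrays, 2 of 3 in each group lay below all KKAy arrays, and the lowest was BI replicate 2, whose growth protocol describes rats. The differences were -0.17 ± 0.18 in BI against KKAy (95% interval -0.59 to 0.24), -0.13 ± 0.18 in Insulin against KKAy and -0.04 ± 0.18 in BI against Insulin. Without BI replicate 2, BI against KKAy was -0.03. A further probe set (1428916_s_at) read 9.46 to 9.76 in BI, 9.74 to 9.84 in Insulin and 9.51 to 9.87 in KKAy livers and stood at -0.02 ± 0.17 in BI against KKAy. The dimmest probe set (1432105_at) ranged from 0.865 to 6.04 over the arrays and could hold a 36.1-fold difference between the extremes, so it bears little weight. None of the 3 pairs of Sirt5 probe sets correlated past the threshold (r = 0.415 to 0.532, exact permutation p adjusted 0.298 to 0.365; rho = -0.133 to 0.50, adjusted 0.415 to 0.912), and without the 2 farthest arrays r was -0.503 to 0.327.

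**Figure D3:**
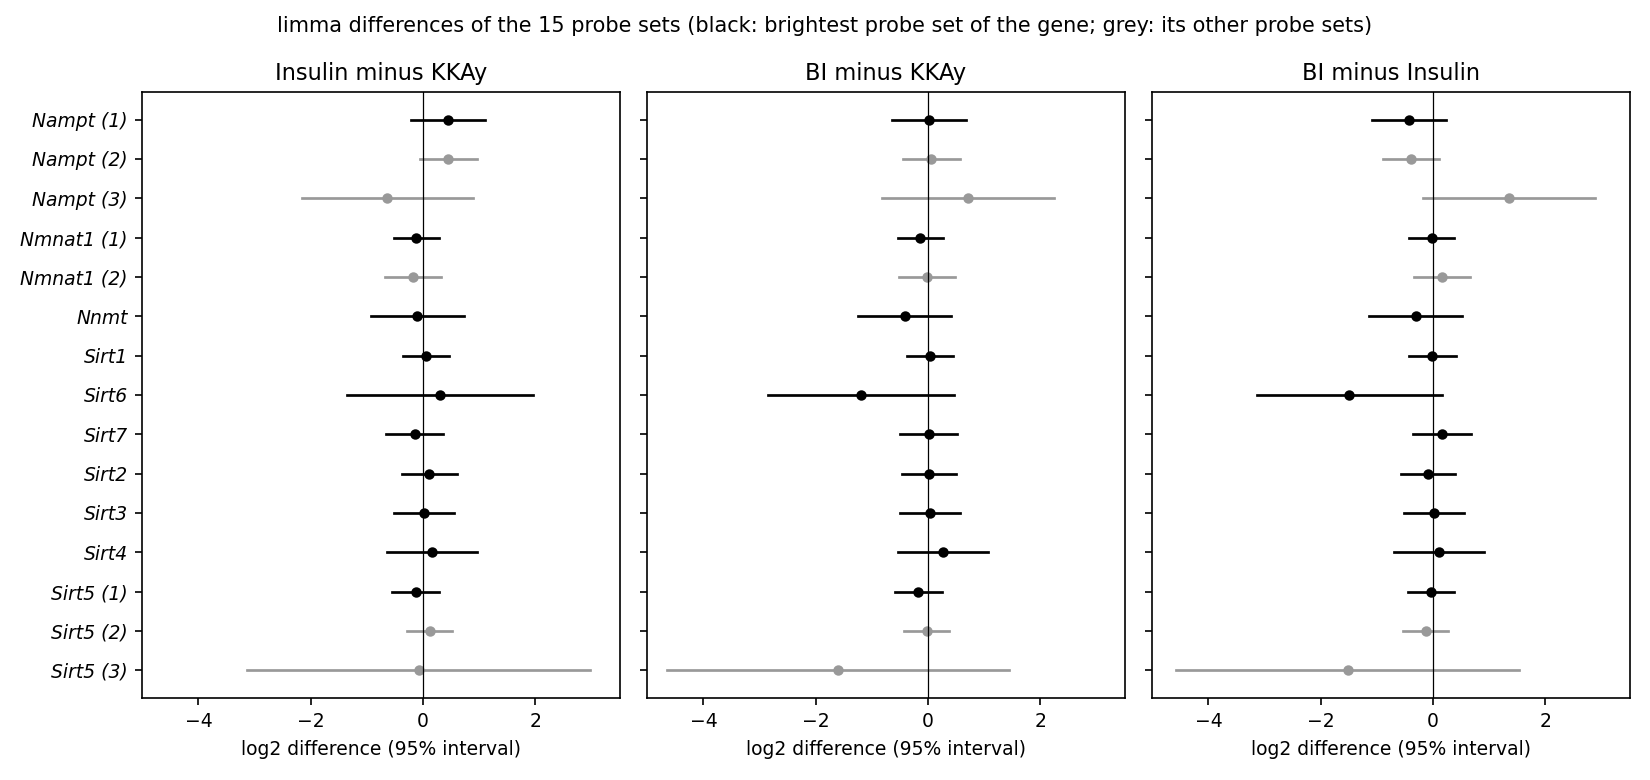
limma log2 differences (x axis, points) with 95% intervals (lines) of the 15 probe sets (rows) in the 3 comparisons, black for the brightest probe set of a gene and grey for its others. Every interval crosses 0; the widest belong to the dimmest probe sets of Nampt and Sirt5 and to Sirt6.

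Read by array, BI replicate 3 gave the lowest of the 9 values for 4 of the 10 genes, Nampt, Nnmt, Sirt1 and Sirt6, while it gave the lowest value of 9.33% of all probe sets. It was the highest for 0 of the 10. KKAy replicate 2 gave the highest value of Nmnat1, Nnmt and Sirt5 and the lowest of Sirt7 and Sirt4. This reading was made after the values were seen. Over the 45 pairs of genes across the 9 arrays, 21 correlations were positive and 24 negative, 1 had an unadjusted exact permutation p under 0.05 and 0 passed after adjustment over the 45. That pair was Nampt and Sirt6 (r = 0.716, exact permutation p = 0.0418, adjusted 0.494; rho = 0.567, exact permutation p = 0.121, adjusted 0.603), and without BI replicate 3 and Insulin replicate 1 its r was 0.0951. Nampt and Sirt1 stood at r = 0.582 (exact permutation p = 0.0972, adjusted 0.494; rho = 0.633, exact permutation p = 0.0760, adjusted 0.603).

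**Figure D4:**
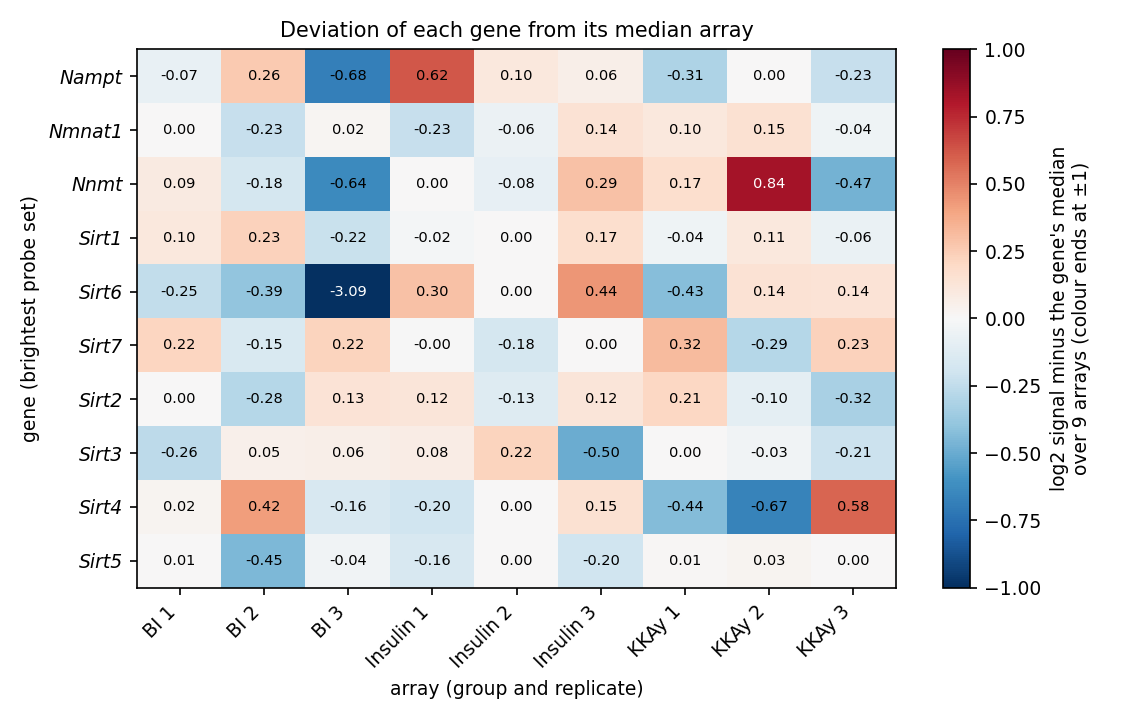
Deviation of each gene's log2 signal from its own median over the 9 arrays (colour and printed value, colour ends at ±1) for the 10 genes (rows) on the arrays of BI, Insulin and KKAy livers (columns). BI replicate 3 is the lowest array for Nampt, Nnmt, Sirt1 and Sirt6, and no column is shifted for all genes.

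By the likeness of their pattern over the 9 arrays (Pearson r, among 11205 other genes at or above the median level), the genes nearest to Nampt were Stab1 (r = 0.938), a scavenger receptor of sinusoidal endothelium and macrophages, Acer2 (0.906), a ceramidase, and C3ar1 (0.896), a complement receptor. Nearest to Sirt1 were Fosl2 (0.931), an AP-1 factor, Fam216a (0.909) and Crem (0.898), a cAMP-responsive regulator. Nearest to Nnmt were Itgb1bp1 (0.993), a binding partner of integrins, Rpap3 (0.975), a chaperone of RNA polymerase assembly, and Nif3l1 (0.974). Above r = 0.9 there were 35 genes for Nnmt and 2 each for Nampt and Sirt1. With 9 arrays and this many genes, high values of r arise in number without any relation, and they are given as a description.

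Nampt is a known target of the clock factors CLOCK and BMAL1 in liver, which bind E-boxes, and Sirt1 acts back on these factors, so the windows around their RefSeq start sites are shown (GRCm38.p6, 250 bases before to 50 after the start, sense strand). In capitals are E-boxes (CACGTG) and GC boxes (GGGCGG on either strand, in places overlapping each other). Nampt lies at chr12:32820085-32820384 (plus strand) and Sirt1 at chr10:63338986-63339285 (minus strand).
Nampt: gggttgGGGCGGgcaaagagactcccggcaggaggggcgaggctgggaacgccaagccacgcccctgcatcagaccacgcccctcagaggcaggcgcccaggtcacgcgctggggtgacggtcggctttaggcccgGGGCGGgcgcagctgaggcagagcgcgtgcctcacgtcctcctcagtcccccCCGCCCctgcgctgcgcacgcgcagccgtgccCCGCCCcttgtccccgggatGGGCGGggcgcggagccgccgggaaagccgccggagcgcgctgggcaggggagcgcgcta
Sirt1: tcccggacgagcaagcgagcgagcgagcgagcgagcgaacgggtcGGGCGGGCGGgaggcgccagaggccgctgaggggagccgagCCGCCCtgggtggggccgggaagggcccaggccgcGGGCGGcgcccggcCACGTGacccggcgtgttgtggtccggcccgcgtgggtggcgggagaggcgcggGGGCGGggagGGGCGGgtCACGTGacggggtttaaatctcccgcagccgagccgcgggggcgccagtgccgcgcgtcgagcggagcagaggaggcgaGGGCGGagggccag

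The Sirt1 window held 2 E-boxes, starting at -115 and -43 from the start site, and 7 GC boxes, and the Nampt window held 5 GC boxes and no CACGTG. Of 12 windows found for 9 of the genes, 1 held an E-box and 9 a GC box, where 7.15% and 35.7% of all 32851 promoter windows in the table did. The D-box TTATGNAA and the cAMP response element TGACGTCA, also searched on both strands, were in 0 of the 12 windows and in 3.38% and 1.79% of all. Nmnat1, Sirt3 and Sirt6 had more than 1 window each. Those of Nmnat1 overlap and hold the same GC box, and those of Sirt6 overlap as well. Matches are letters in a window and show no binding.

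Of 16 measured core clock genes (17 listed), 0 passed in any comparison. In Insulin against KKAy 8 stood higher and 8 lower (median 0.01, all genes 0.02), with Hlf, a clock output factor, at -0.57 ± 0.20 and the nuclear receptor Rora at -0.27 ± 0.20. In BI against KKAy 5 were higher and 11 lower (median -0.23, all genes 0.00038), with Rora at -0.38 ± 0.20 and Ciart, a repressor of the clock, at -0.93 ± 0.62. Ciart was dim, with a mean of 2.41 in BI and 3.34 in KKAy livers, below the median level of all probe sets. Between BI and Insulin livers 6 were higher and 10 lower in BI (median -0.27, all genes -0.03), with the repressor Cry1 at 0.79 ± 0.42 and Hlf at 0.35 ± 0.20. The sources used here give no hour of sampling.

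The rest of NAD synthesis held 18 measured genes (19 listed), 0 of which passed. In BI against KKAy 12 of 18 were lower (median -0.02). Enzymes of the route from tryptophan lay on both sides. Qprt, Kynu, Kmo (-0.10) and Haao (-0.02) were lower, and Tdo2 (0.04), Ido1 (1.17 ± 1.14), Ido2 (0.01) and Afmid (0.47 ± 0.81) higher. Ido1 was dim, with a mean level of 3.82 over the arrays, below the median level of all probe sets. Qprt, which makes nicotinic acid mononucleotide from quinolinate, read 12.12, 12.26 and 12.09 in BI livers, 12.38, 12.20 and 12.29 in Insulin livers and 12.49, 12.69 and 12.48 in KKAy livers. Every KKAy array lay above every treated array, at -0.40 ± 0.15 in BI against KKAy (limma unadjusted p 0.0343, adjusted 0.999) and -0.26 ± 0.15 in Insulin against KKAy. Kynu, the kynureninase upstream of quinolinate, read 12.58, 12.46 and 12.51 in BI livers and 12.82, 12.75 and 12.99 in KKAy livers (-0.34 ± 0.16, adjusted p 0.999 by limma). In Insulin against KKAy 13 of 18 were lower (median -0.07), with the transporter gene Slc12a8 at -0.41 ± 0.21. Compared with Insulin livers, 10 of 18 were lower in BI livers (median -0.02), with Slc25a51, the mitochondrial NAD carrier, at -0.35 ± 0.18 and Slc12a8 at 0.39 ± 0.21. Groups did not overlap for 2, 3 and 3 of the 18 in Insulin against KKAy, BI against KKAy and BI against Insulin, where 9.19%, 9.21% and 9.6% of all probe sets did so. The lists count each gene by its brightest probe set, and shares over the brightest probe sets alone were not taken.

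Of 17 measured NAD consumers and relatives (19 listed), 0 passed. In Insulin against KKAy 13 were higher and 4 lower (median 0.14), in BI against KKAy 8 and 9 (median -0.01) and in BI against Insulin 3 and 14 (median -0.14). Art4, a member of the ADP-ribosyltransferase family known in humans as a red cell antigen, read 5.45, 6.63 and 5.99 in BI livers, 4.20, 2.90 and 5.59 in Insulin livers and 2.90, 1.55 and 2.73 in KKAy livers. The BI arrays lay above the KKAy arrays by 3.63 ± 0.71 (limma adjusted p 0.627) and every value but that of BI replicate 2 was below the lowest array median (6.11). Its relative Art3 stood at 0.83 ± 0.26 in BI against KKAy and 0.88 ± 0.26 in Insulin against KKAy, with no overlap in either. Insulin against KKAy gave 1.84 ± 0.71 for Art4, where the lowest Insulin and the highest KKAy array both read 2.90 to the digits shown. In BI against Insulin, Art4 was at 1.79 ± 0.71 and Parp12 at -0.39 ± 0.24. Groups were separate for 2, 2 and 1 of the 17 in Insulin against KKAy, BI against KKAy and BI against Insulin. Over all probe sets, not only the brightest of each gene, 9.19%, 9.21% and 9.6% were separate.

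Genes that clear nicotinamide or recycle the methyl donor (14 of 16 measured) had 0 called. The medians were -0.06 in Insulin against KKAy (4 higher, 10 lower), -0.03 in BI against KKAy (6 and 8) and 0.04 in BI against Insulin (10 and 4). Mtr, the methionine synthase, stood at 0.82 ± 0.33 in Insulin against KKAy and 0.46 ± 0.33 in BI against KKAy, and Pemt, a methyl consumer of liver, at -0.30 ± 0.20 in Insulin against KKAy. Aox1, which oxidizes methylated nicotinamide, stood at 0.30 ± 0.25 in BI against KKAy and 0.40 ± 0.25 in BI against Insulin, and Mat2b at -0.18 ± 0.16 in BI against Insulin.

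Of the known substrates and partners of sirtuins (31 of 34 measured), 0 passed, and medians were 0.03, -0.01 and -0.01 in Insulin against KKAy, BI against KKAy and BI against Insulin. Ppargc1a, which encodes PGC-1α, read 8.12, 8.00 and 8.32 in BI livers, 7.97, 8.47 and 8.00 in Insulin livers and 8.65, 8.70 and 8.80 in KKAy livers. All 6 treated arrays lay below the KKAy arrays, at -0.57 ± 0.20 in BI against KKAy and -0.57 ± 0.20 in Insulin against KKAy (limma adjusted p 0.999 and 1.00). Both differences rest on the same 3 KKAy arrays. Groups were separate for 3, 4 and 1 of the 31 in Insulin against KKAy, BI against KKAy and BI against Insulin. Over all probe sets, not only the brightest of each gene, 9.19%, 9.21% and 9.6% were separate. Srebf1 stood at 0.33 ± 0.16 in BI against KKAy and Prkdc at 0.36 ± 0.17 in Insulin against KKAy. In BI against Insulin, Pck1, the gluconeogenic carboxykinase, stood at -0.40 ± 0.18, and Gabpb1 at -0.35 ± 0.24. In that comparison 14 were higher and 17 lower, as in BI against KKAy, against 16 and 15 in Insulin against KKAy.

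**Figure D5:**
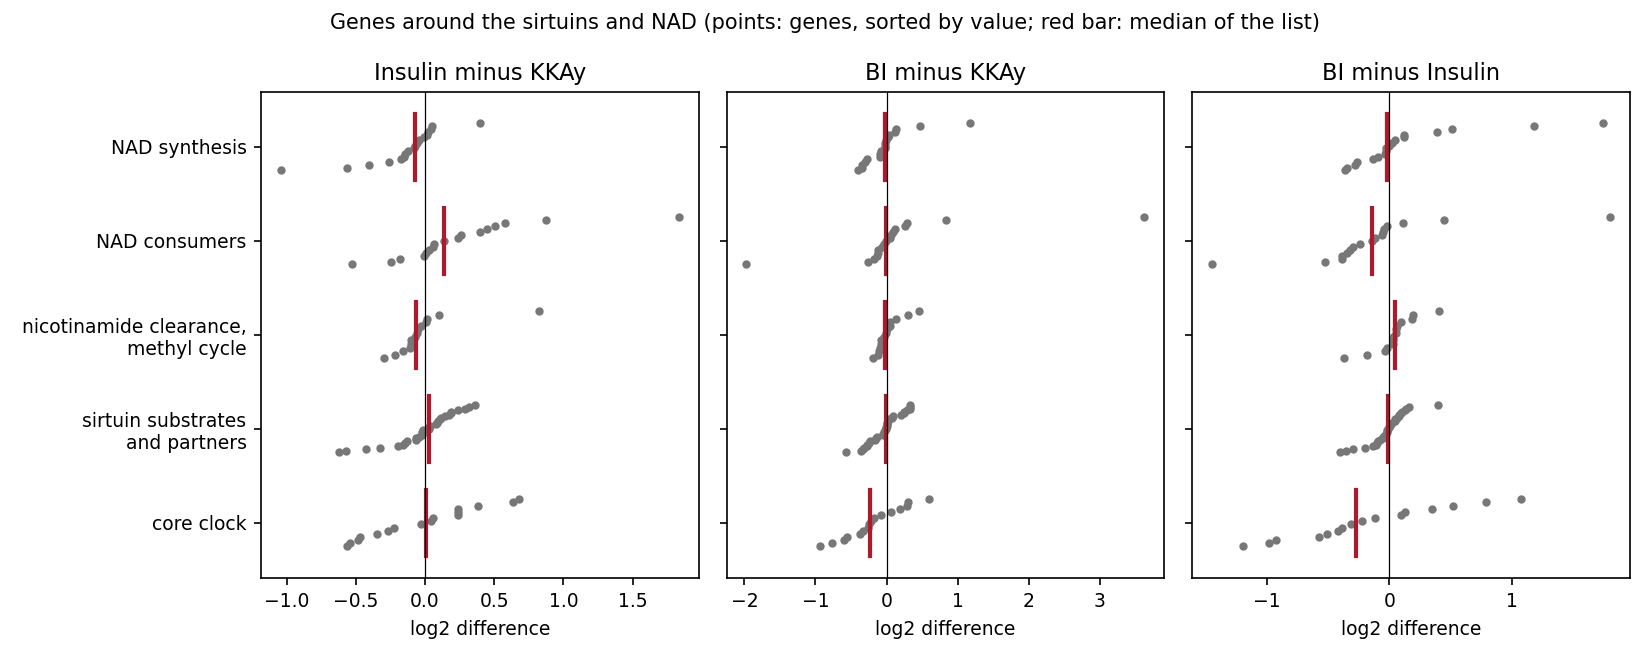
log2 differences (x axis, scaled per panel) of the genes of 5 lists around the sirtuins and NAD (rows) in the 3 comparisons, 1 point per gene sorted by value, with a red bar at the list's median. The medians lie between -0.27 and 0.14, and the far point at 3.63 in BI against KKAy is Art4.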

How the data were processed

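The authors deposited log2 signals for the probe sets of Affymetrix 3' arrays, and the sources used here do not name the software. RNA was isolated with TRIzol and RNeasy columns and labelled with biotin as cRNA, per the labels' protocols. Each array had the same 2% trimmed mean of the linear signal (500.004) and 152 to 247 probe sets at a floor of 0, so the log2 values were used as deposited. Of 45101 probe sets, 64 controls were left out and 45037 tested. The platform annotation of 2016 gave 34945 a single gene symbol, 932 several and 9160 none, and 34741 were matched by gene ID to current RefSeq names. A gene is represented by its brightest probe set, and all probe sets of the 10 genes are reported.

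All 9 arrays entered 1 fit in limma 3.58.1 (R 4.3.3, group as the only factor, 6 residual degrees of freedom, two-sided, Benjamini-Hochberg over 45037 probe sets, threshold 0.05). The procedure was also run on simulated data, with large changes planted only in probe sets above the median level. That run does not speak to the smaller differences or the dim probe sets here. Exact two-sided permutation tests used scipy 1.17.1. Precision is limited by the number of arrays. The genes, lists, naming rule and tests were chosen with earlier results of these data known. All 10 genes are named, and of each of 5 lists the genes that passed, or the 2 with the smallest p per comparison if there were none. Patterns were matched for Nampt, Nnmt and Sirt1. Markers of 9 cell types were read the same way.

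Probe set by probe set, same-numbered arrays of different groups did not vary together (r of deviations from the group mean -0.03 to 0.04 over 9 pairs), so the numbers were not taken as pairs. That r cannot see a shift shared by all probe sets of an array. The array medians rose with the replicate number in each group. They were 6.132, 6.204 and 6.295 in BI, 6.172, 6.266 and 6.267 in Insulin and 6.113, 6.165 and 6.265 in KKAy livers. The summed hepatocyte signals rose in the same order. What the replicate numbers stand for is not known. Alternatives were quantile normalization, equal array medians, leaving out dim probe sets, a variance trend with robust fitting, a separate fit for each pair of groups, averaging the probe sets of a gene, weighting the arrays, a block for the replicate number, and the omission of each array in turn.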

Additional observations from a re-analysis of the deposited data

How the results depend on the processing

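In the 507 recomputed values of the 10 genes (30 differences), 0 were called (smallest adjusted p 0.941) and 43 changed sign in 17 of the 30 differences. The largest of these was Nampt in BI against Insulin (-0.43), and the next was Sirt4 in Insulin against KKAy (0.16). No alternative called any of the 15 probe sets. Over all probe sets, the 5 calls of BI against KKAy became 1 without dim probe sets, 0 with only the 2 groups compared and 0 with a replicate block, and 0 to 2 when 1 array was left out. There were 4 with quantile normalization, 4 with array weights, 5 with equal array medians and 6 with a variance trend and robust fitting. BI against Insulin had 1 call without dim probe sets and 0 to 1 when 1 array was left out. The replicate block changed no other call. Leaving out dim probe sets removes Sirt6.

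With equal array medians the sign turned in Insulin against KKAy for Sirt1 (-0.0044) and Sirt3 (-0.037), in BI against KKAy for Nampt (-0.014), Sirt7 (-0.019) and Sirt2 (-0.0067), and in BI against Insulin for Nmnat1 (0.0026) and Sirt1 (0.012). In BI against Insulin it also turned for Sirt1 with quantile normalization (0.0022), for Sirt3 with array weights (-0.0079), and with the mean of all probe sets for Nampt (0.18) and Nmnat1 (0.071). Equal array medians add the same amount to the difference of every gene in a comparison, which is what turned those signs. The mean brings in the other probe sets of Nampt, the dim one among them, and of Nmnat1. For quantile normalization and array weights the cause was not tested.

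Leaving out 1 array gave, in Insulin against KKAy, -0.43 to 0.22 for Nnmt, -0.011 to 0.10 for Sirt1, -0.012 to 0.25 for Sirt2, -0.13 to 0.23 for Sirt3 and -0.087 to 0.54 for Sirt4. In BI against KKAy it gave -0.20 to 0.27 for Nampt, -0.059 to 0.17 for Sirt1, -0.10 to 0.16 for Sirt2, -0.034 to 0.14 for Sirt3 and -0.18 to 0.13 for Sirt7. In BI against Insulin it gave -0.11 to 0.074 for Nmnat1, -0.11 to 0.12 for Sirt1, -0.18 to 0.027 for Sirt2, -0.20 to 0.16 for Sirt3, -0.053 to 0.24 for Sirt4 and -0.12 to 0.10 for Sirt5. The other differences kept their sign. Nampt was at 0.26 to 0.54 in Insulin against KKAy and -0.64 to -0.17 in BI against Insulin. Nnmt was at -0.74 to -0.090 in BI against KKAy and -0.48 to -0.12 in BI against Insulin, and Sirt4 at 0.022 to 0.65 in BI against KKAy. Sirt6 was at 0.11 to 0.42 in Insulin against KKAy, -1.69 to -0.27 in BI against KKAy and -1.99 to -0.57 in BI against Insulin. Whether dim signals were above background is not known.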

Other observations

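Nnmt varied more within groups than most probe sets of its level. Its residual SD was 0.45 (log2), larger than that of 96.5% of the 637 probe sets within 0.5 of its mean, whose median was 0.13. For the brightest Nampt probe set the residual SD was 0.34, larger than in 89.3% of 2474 such probe sets. The further bright Nampt probe set was at 0.23 and 64.3% of 3044, and the dim one at 0.88 and 26.7% of 6317. By their brightest probe sets, Nmnat1 was at 0.15 and 10.7% of 3715, and Sirt1 at 0.16 and 25.6% of 3248.

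The other cell type markers had 0 called in any comparison. In BI against KKAy the medians were -0.04 for 8 hepatocyte markers, -0.07 for 8 of Kupffer cells and macrophages, -0.70 for 6 of neutrophils, -0.04 for 8 of stellate cells and fibroblasts, 0.10 for 6 of adipocytes, -0.19 for 8 of endothelial cells, -0.36 for 5 of cholangiocytes, 0.25 for 6 of lymphocytes and -0.08 for 6 of skeletal muscle. In Insulin against KKAy they were -0.05, 0.22, -0.24, -0.002, 0.40, 0.32, -0.13, 0.51 and 0.27 in the same order. Below the median level of all probe sets lay 3 of 6 adipocyte, 3 of 5 cholangiocyte, 5 of 6 lymphocyte and 5 of 6 skeletal muscle markers.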
